A study of Mus musculus with 6 samples.

Results

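The genes described here are Myc and 31 genes that act downstream of it in cell growth, most of them encoding proteins that make ribosomes in the nucleolus. The list gives the genes by name and uses no measured value. Of the 32 listed genes 30 had a row among the 22180 genes of the array table. Fbl and Apex1 lay on probe sets assigned to several genes and were left out by that rule. A gene with several probe sets was represented by the one with the highest mean over all arrays.

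RNA was measured on 6 Affymetrix Mouse Gene 2.0 ST arrays of LSK cells, the lineage-negative, Sca-1-positive, c-Kit-high fraction of bone marrow that contains the blood stem cells and early multipotent progenitors. The 3 control arrays were labelled WT. The other 3, labelled CTCFcKO, came from mice with a conditional Ctcf knockout induced by tamoxifen, and each array is labelled a biological replicate. All mice were male and 8 weeks old, and all received 2 mg of tamoxifen a day by intraperitoneal injection for 3 days, with cells sorted 24 hours after the last dose. The design text names a CreER recombinase without the promoter that drives it, and the labels leave it unclear whether the WT mice carried CreER. Ctcf encodes the zinc finger protein CTCF, which binds DNA at insulators and at the bases of chromatin loops.

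MYC is a transcription factor that pairs with MAX and binds E-box sequences in DNA. Among the genes it is best known for raising are those for ribosome production, the main task of the nucleolus. There RNA polymerase I copies the ribosomal DNA, small nucleolar ribonucleoproteins (snoRNPs) cut and modify the transcript, and separate groups of factors assemble the small and the large subunit. In blood stem cells a low level of MYC and of ribosome production accompanies quiescence, and both rise as progenitors begin to divide.

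As a check of the labels, the signal of Ctcf in the knockout was 56.7% of that in WT, with no overlap between the groups and a limma adjusted p of 0.104. Which exons are deleted, and whether the probes lie in them, is not stated in the labels. The LSK markers Kit, Cd34 and Flt3 had WT means of 10.38, 11.97 and 11.37, while the lineage antigens Cd3e, Cd4, Cd8a and Ly6g had WT means between 5.16 and 6.03. The other lineage antigens measured were higher, with WT means of 7.87 for Itgam, 9.90 for Il7r and 9.91 for Ptprc, the last carried by white blood cells in general. Ly6a, which encodes Sca-1, had no row. All 30 genes measured lay above the median level of all genes, 6.29. The arrays carry no detection call, so a low signal does not show absence. Their number, 3 per group, limits the precision of each value below.

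Among the 30 measured genes Myc alone had an unadjusted p under 0.05, and it was lower in the knockout. On the log2 scale, where equal steps are equal fold changes, its levels were 11.18, 11.15 and 10.90 on the WT arrays and 10.60, 10.30 and 10.84 on the knockout arrays. All 3 knockout arrays lay below all 3 WT arrays, but the gap between WT replicate 3 and knockout replicate 3 was smaller than the SD of either group. The means were 11.08 ± 0.15 (SD, n = 3) and 10.58 ± 0.27 (SD, n = 3), a log2 difference of -0.50 (SE 0.15), which leaves 70.6% of the WT level with a 95% interval of 55.4% to 90.2%. Limma gave an unadjusted p of 0.0106 and an adjusted p of 0.459 over all genes, so Myc did not pass the threshold of 0.05. An exact two-sided permutation test of Myc over the 6 arrays gave p = 0.1, and no smaller p is possible with 3 arrays a group. Leaving out 1 array at a time gave differences between -0.63 and -0.36, and the adjusted p was between 0.337 and 0.802 over all alternatives tried.

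None of the 30 genes was called at an adjusted p under 0.05, a call that limma with Benjamini-Hochberg adjustment made for 0.0721% of all genes. Before adjustment, limma put 0 of the 30 at p under 0.05 upward and 1 downward, as it did for 5.03% and 3.08% of all genes. The groups did not overlap upward for 1 gene, Bop1, and downward for 1 gene, Myc. The same held for 7.96% of all genes upward and 5.32% downward. Counts of 0 or 1 among 30 genes are close to, or below, what these shares would give.

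**Figure D1:**
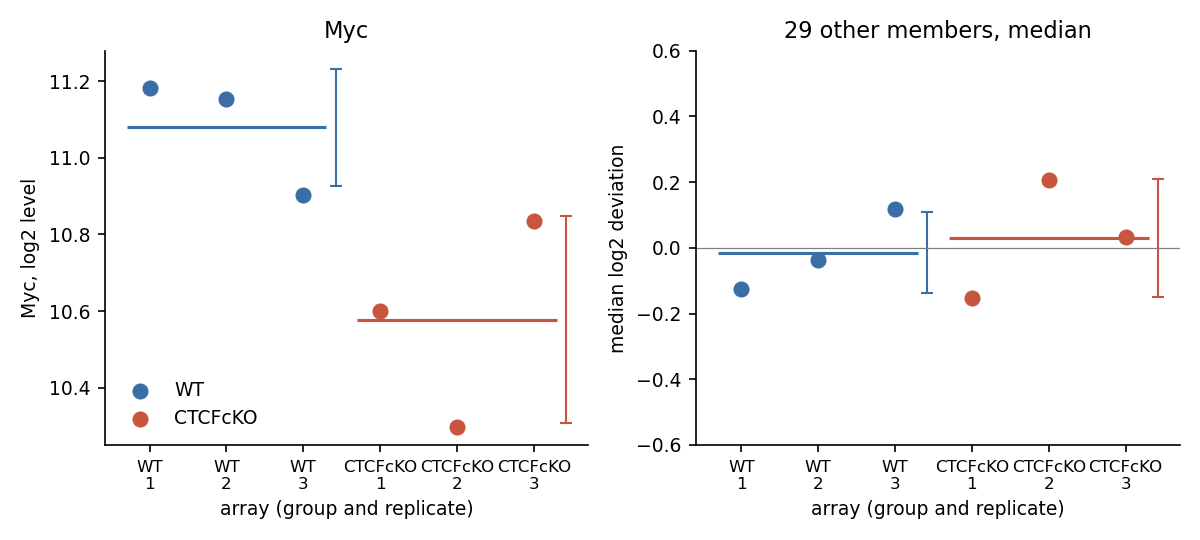
The left panel plots the log2 level of Myc on each array, with a line at each group mean and a bar of 1 SD; the 3 knockout arrays lie between 10.30 and 10.84, below the WT arrays at 10.90 to 11.18. The right panel plots, for each array, the median over the 29 other measured genes of the log2 deviation from each gene's own mean, and there the groups overlap.

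The genes downstream of Myc had differences near 0. Over the 29 other genes 20 differences were positive and 9 negative, with a median of 0.03 and a range from -0.13 to 0.25. Over all genes 54.7% were positive and the median was 0.02. After centring the arrays on the brighter genes, or after a further quantile normalization, the median over the 30 genes was -0.03 in place of 0.02. In these fits the median over all genes was -0.0379 and -0.0003. Centring shifts every gene alike, so that change of sign is not particular to the list. The list has no settled direction. The lowest adjusted p among the 29 was 0.679. A missed threshold does not show equality, so the intervals matter here: for 26 of the 29 the 95% interval of the difference lay wholly within 1.5-fold in either direction, as it did for 81.4% of all genes. The 3 that reached beyond 1.5-fold were Gar1, Nop58 and Nme1, each at its upper end. The interval of Myc reached beyond it at its lower end.

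**Figure D2:**
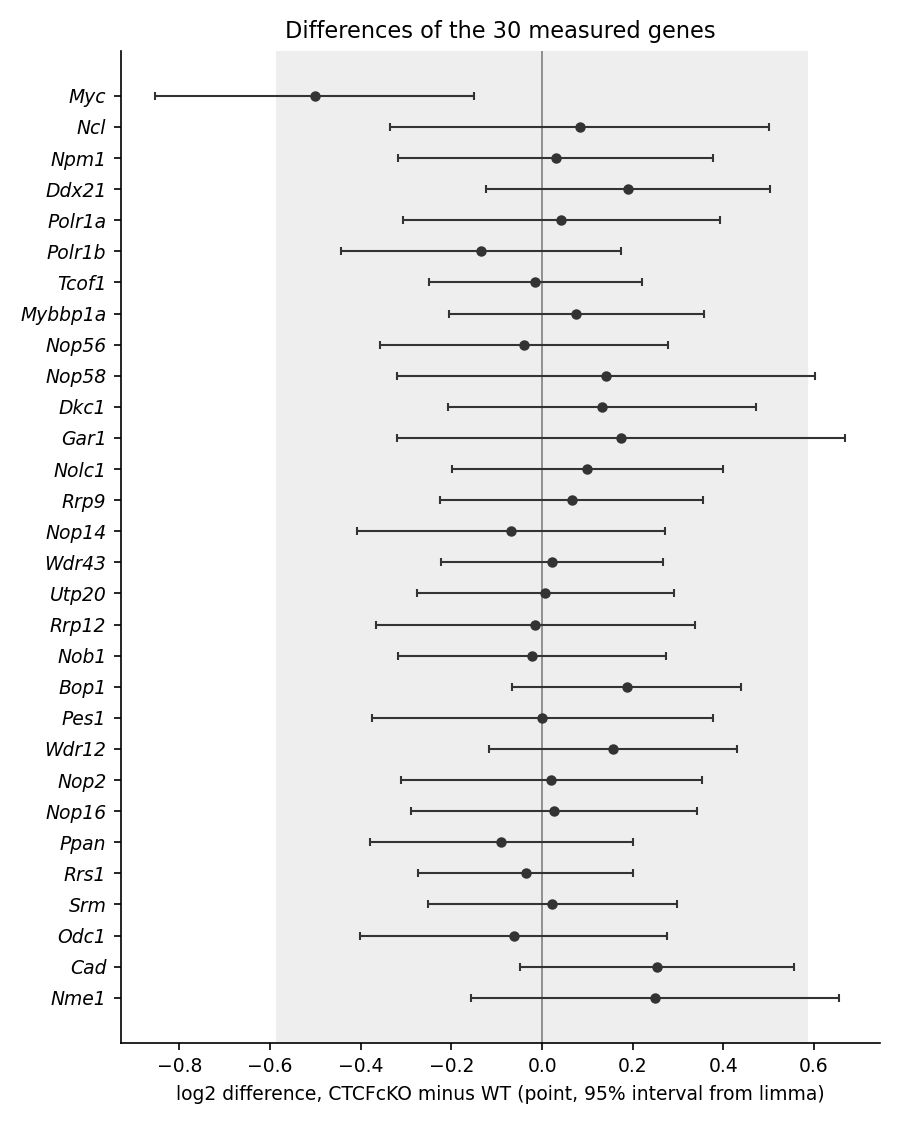
Points are log2 differences, knockout minus WT, of the 30 measured genes, bars are 95% intervals from limma and the grey band marks 1.5-fold in either direction. Myc at -0.50 is the single gene whose interval does not reach 0.

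The binding sequence of MYC was looked for in the promoters of these genes. They were listed as genes downstream of MYC, so its share among them is not independent of the choice. The canonical E-box CACGTG, which reads the same on both strands, was searched in the RefSeq promoter windows of build GRCm38.p6, each running from 250 bases before the start of a gene to 50 bases after it. Of the 32 listed genes 24 had such a window, and 7 of them, or 29.2%, held the E-box, against 8.09% of 27025 genes. The seventh, Apex1, had no measured value. The 27025 genes were not matched to the list in base composition. The sites of the 6 measured genes are shown with up to 12 bases on either side, 5′ to 3′ on the gene's strand and with the E-box in capitals, because this is the sequence that MYC and MAX are known to bind.
Nop2: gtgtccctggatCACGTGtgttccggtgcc
Utp20: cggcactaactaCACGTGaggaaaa
Pes1: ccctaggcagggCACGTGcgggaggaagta
Mybbp1a: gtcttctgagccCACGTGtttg
Nme1, upstream start: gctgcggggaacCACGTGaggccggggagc
Nme1, downstream start: agcttgatacgcCACGTGggctcgcctttg
Wdr43: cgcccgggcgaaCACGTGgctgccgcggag
Counting from the start site, the first base of the E-box lay at -60 in Nop2, 38 in Utp20, 3 in Pes1, 41 in Mybbp1a, -18 and -29 at the starts of Nme1 and 18 in Wdr43. The windows printed are chr6:125131811-125131840 (plus strand) for Nop2, chr10:88826765-88826789 (minus) for Utp20, chr11:3963965-3963994 (plus) for Pes1, chr11:72441355-72441376 (plus) for Mybbp1a, chr11:93968273-93968302 and chr11:93968037-93968066 (minus) for Nme1 and chr17:71616220-71616249 (plus) for Wdr43.

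In Nop2 and at both starts of Nme1 the E-box lies before the start site, and for Nop2 and the upstream start of Nme1 the 250 bases up to the start are given to show its surroundings, with the E-box again in capitals.
Nop2, chr6:125131633-125131882, plus strand: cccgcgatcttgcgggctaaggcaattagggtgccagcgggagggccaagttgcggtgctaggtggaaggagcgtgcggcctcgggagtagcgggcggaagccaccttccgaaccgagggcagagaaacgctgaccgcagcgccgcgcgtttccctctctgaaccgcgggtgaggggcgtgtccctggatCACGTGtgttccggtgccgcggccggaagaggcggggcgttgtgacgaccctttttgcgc
Nme1, chr11:93968273-93968522, minus strand: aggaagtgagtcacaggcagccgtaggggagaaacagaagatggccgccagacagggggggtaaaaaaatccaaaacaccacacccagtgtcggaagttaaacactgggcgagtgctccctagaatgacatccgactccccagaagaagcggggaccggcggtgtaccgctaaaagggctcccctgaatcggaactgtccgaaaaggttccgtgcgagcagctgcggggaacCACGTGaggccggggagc
The 6 measured genes with an E-box in the window had log2 differences between 0.00 and 0.25, with a median of 0.02, and the 17 measured genes with a window but no E-box had differences between -0.13 and 0.25, with a median of 0.07. These ranges overlapped. A match is a description of the sequence and not evidence of binding in LSK cells.

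Nucleolar scaffold and helicase genes overlapped between the groups. Genes other than Myc that are given array by array here were chosen after their values were seen. Ncl encodes nucleolin, an abundant RNA-binding protein of the nucleolus, and stood at 10.26, 10.65 and 10.83 in WT and 10.35, 10.85 and 10.80 in the knockout, a difference of 0.08 (SE 0.18). In both groups replicate 1 was the lowest, and the other arrays lay close together across genotypes. Npm1, which encodes the histone and ribosome chaperone nucleophosmin, differed by 0.03 (SE 0.15), from 10.86 ± 0.23 to 10.89 ± 0.20 (SD, n = 3 each). Its dimmer second probe set differed by -0.01. The RNA helicase gene Ddx21, which couples RNA polymerase I transcription to rRNA processing, differed by 0.19 (SE 0.14) on its brighter probe set and by -0.06 on the dimmer one, so its direction depends on the probe set.

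Genes of RNA polymerase I and its cofactors had small differences. Polr1a, the largest subunit, differed by 0.04 (SE 0.15) and Polr1b, the second largest, by -0.13 (SE 0.14), the lowest value after that of Myc, which became -0.018 without knockout replicate 1. Tcof1 encodes treacle, which recruits the polymerase to ribosomal DNA, and differed by -0.01 (SE 0.10), with a 95% interval from -0.25 to 0.22. Mybbp1a, a MYB-binding nucleolar protein gene, differed by 0.08 (SE 0.12).

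Among genes of snoRNP proteins the spread between arrays was wide, most of all for Gar1 and Nop58. Nop56 and Nop58, the paired core proteins of box C/D particles that guide rRNA methylation, differed by -0.04 (SE 0.14) and 0.14 (SE 0.20). The dimmer probe sets of Nop56 differed by -0.22 and -0.25, and the mean of its 3 probe sets by -0.17. The levels of Nop58 were 8.49, 8.71 and 8.90 in WT and 8.39, 9.18 and 8.95 in the knockout. Knockout replicate 1 was the lowest of all 6 arrays and knockout replicate 2 the highest. Dkc1, the pseudouridine synthase dyskerin of box H/ACA particles, differed by 0.13 (SE 0.15), and its partner Gar1 by 0.17 (SE 0.22). Gar1 ranged from 6.86 to 7.52 in WT and from 7.12 to 7.79 in the knockout, the difference being well inside either range. Nolc1, a chaperone of both particle classes, differed by 0.10 (SE 0.13).

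Genes of the small subunit pathway lay nearest to 0. All 6 differed by between -0.07 and 0.07. Rrp9, a protein of the U3 particle that starts cleavage of the precursor rRNA, differed by 0.07 (SE 0.13), and the processome proteins Nop14, Wdr43 and Utp20 by -0.07, 0.02 and 0.01. Rrp12, which takes part in maturation and export, and Nob1, the endonuclease that makes the final cut of the small subunit rRNA, differed by -0.01 and -0.02. Nob1 was tight in WT, at 8.75 ± 0.03 (SD, n = 3), and wider in the knockout, at 8.73 ± 0.22 (SD, n = 3).

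In the large subunit pathway the PeBoW complex, made of the products of Pes1, Bop1 and Wdr12, showed unlike values. Bop1 stood at 8.60, 8.48 and 8.63 in WT and 8.64, 8.88 and 8.76 in the knockout. The lowest knockout array exceeded the highest WT array by less than the SD of either group. Bop1 differed by 0.19 (SE 0.11, limma adjusted p = 0.723), and its groups overlapped after a further quantile normalization or after centring on the brighter genes. Wdr12 differed by 0.16 (SE 0.12) and Pes1 by 0.00 (SE 0.17), and no difference between the 3 was tested. The other members were the rRNA methyltransferase gene Nop2 (0.02), Nop16 (0.03), Ppan (-0.09) and Rrs1 (-0.04), with the difference in log2 in brackets. Dimmer probe sets of Ppan and Rrs1 differed by -0.02 and -0.12.

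The growth enzymes gave the most positive values, none past the test. Cad encodes the enzyme that carries out the first steps of pyrimidine synthesis and stood at 7.89, 7.95 and 8.26 in WT and 8.15, 8.41 and 8.30 in the knockout. WT replicate 3 lay above knockout replicate 1, so the groups overlapped, and the difference was 0.25 (SE 0.13, limma adjusted p = 0.679). Nme1, a nucleoside diphosphate kinase gene, differed by 0.25 (SE 0.18), with 7.64, 7.11 and 7.36 in WT and 7.86, 7.32 and 7.68 in the knockout. Nme1 has a near-identical neighbour, Nme2, whose probe sets were left out as they carry several genes, so its value is uncertain. In polyamine synthesis Odc1, which encodes the ornithine decarboxylase that is a textbook MYC target, differed by -0.06 (SE 0.15), and Srm, spermidine synthase, by 0.02 (SE 0.12).

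**Figure D3:**
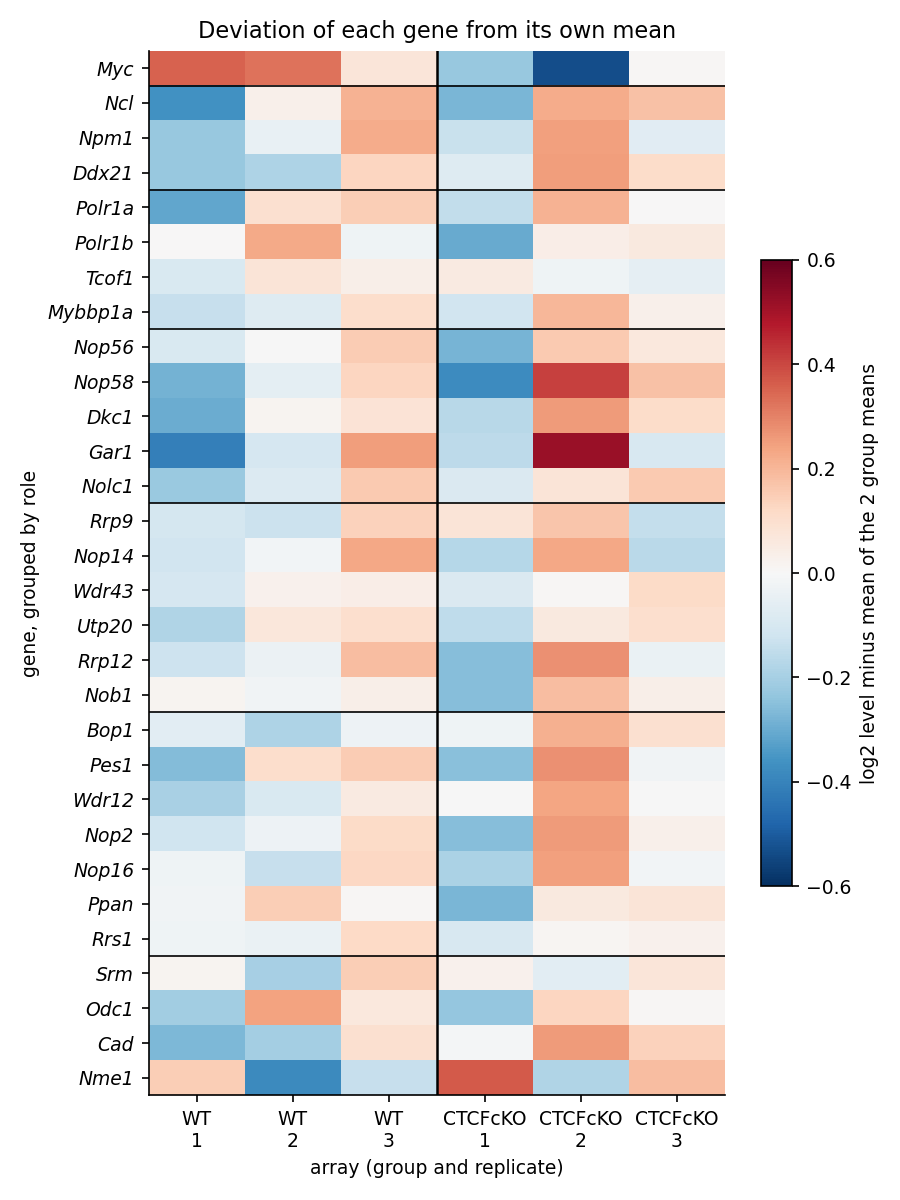
Each cell is the log2 level of 1 gene on 1 array minus the mean of that gene's 2 group means, red above and blue below, with genes grouped by role and a vertical line between WT and knockout. Replicate 1 of both groups is mostly blue, WT replicate 3 and knockout replicate 2 mostly red, while Myc is lowest on knockout replicate 2.

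The genes varied together from array to array, and by more than they differed between genotypes. The median deviation of the 29 genes other than Myc was -0.13, -0.04 and 0.12 on the WT arrays and -0.15, 0.21 and 0.03 on the knockout arrays. Each group thus held arrays below and above 0, and the group means of -0.01 ± 0.12 and 0.03 ± 0.18 (SD, n = 3 each) were closer to each other than the arrays within a group. For all 29 the range within at least 1 group exceeded the difference between the group means. The larger of 2 ranges is set here against a difference of means, so most unchanged genes would do the same. The share over all genes was not counted. WT replicate 1 was the lowest WT array for 21 of the 29 and WT replicate 3 the highest for 24, while over all genes these arrays were the lowest for 31.7% and the highest for 35.3%. Knockout replicate 1 was the lowest knockout array for 24 of the 29 and knockout replicate 2 the highest for 20, against 34.5% and 33.0% of all genes. This order was noticed in the data and carries no test. Nme1 and Srm ran against it, with knockout replicate 2 the lowest knockout array, and in Nme1 and Tcof1 knockout replicate 1 was the highest.

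Myc did not share that order. On knockout replicate 2, where the 29 genes had their highest median of 0.21, Myc had its lowest level of the 6 arrays at 10.30. On WT replicate 1, where they were at -0.13, Myc had its highest level at 11.18. Myc's own deviation minus the median of the 29 was 0.48, 0.36 and -0.04 on the WT arrays and -0.08, -0.74 and -0.03 on the knockout arrays. On this scale WT replicate 3 lay between knockout replicates 1 and 3, so the groups overlapped, and the separation of their means rests on WT replicates 1 and 2 and knockout replicate 2.

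Genes of the MYC network outside the list also stayed without a call. The 16 measured genes had a median difference of -0.03, with 6 positive and 10 negative, and limma gave none of them an unadjusted p under 0.05. Max, the partner that MYC needs to bind DNA, differed by 0.15 (SE 0.12), and Mnt and Mxd1, which compete with MYC for MAX, by -0.13 and -0.05. The paralogs Mycn and Mycl differed by 0.10 and -0.14. The most negative was Mlxip, the glucose-sensing partner of MLX, at -0.36 (SE 0.18, limma adjusted p = 0.658). These genes are named after their values were seen.

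Ribosome factors outside the list also had medians near 0. Of 14 further genes of RNA polymerase I and its cofactors 0 were called, with a median of 0.04 that became -0.015 after centring on the brighter genes, -0.0091 after a further quantile normalization, -0.016 without knockout replicate 2 and -0.0017 without WT replicate 2. Of 38 small subunit factors 0 were called, with a median of 0.06 that became 0.0005 after that centring and 0.002 after that normalization. Pno1, a partner of the Nob1 endonuclease, had the largest of these, 0.36 (SE 0.15, limma unadjusted p = 0.042). Of 48 large subunit factors 0 were called, with a median of 0.07 that became 0.0004 without knockout replicate 2. There Nop53, a late assembly factor of that subunit, stood at 9.88 ± 0.04 in WT and 9.62 ± 0.05 (SD, n = 3 each) in the knockout, a difference of -0.26 (SE 0.10, limma adjusted p = 0.560), and each knockout array lay below each WT array. Over these lists and the snoRNP list together limma put 3 of 114 genes upward and 1 downward at an unadjusted p under 0.05, and called 0. Over all genes those shares were 5.03% upward and 3.08% downward.

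For assembly factors of snoRNPs and for nucleotide enzymes most differences lay above 0. Of 14 measured snoRNP genes outside the 30, 13 lay above 0, and the median was 0.17. Of all genes 54.7% lay above 0. Pih1d1 and Znhit3, which help load the core proteins onto snoRNAs, differed by 0.36 (SE 0.13) and 0.31 (SE 0.11), with groups that did not overlap. Of 20 genes of polyamine and nucleotide synthesis 17 were positive, with a median of 0.15, and Umps, which completes uridine monophosphate, differed by 0.46 (SE 0.14, limma adjusted p = 0.470). No gene of either list was called. With 1 array left out the snoRNP median moved between 0.08 and 0.25 and that of polyamine and nucleotide synthesis between 0.05 and 0.24.

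**Figure D4:**
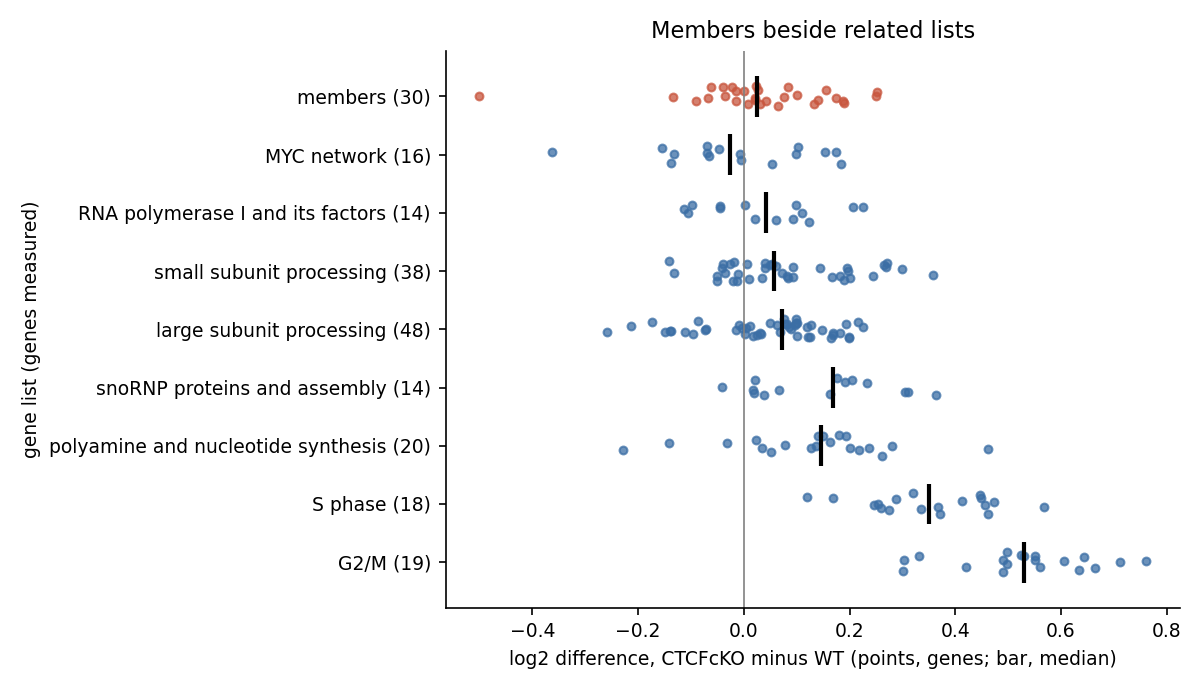
Each point is the log2 difference, knockout minus WT, of 1 gene, and the black bar is the median of its list, with the number of measured genes in brackets. The list described here, in red, has a median of 0.02 with Myc as its lowest point, while the medians of S phase and G2/M genes lie at 0.35 and 0.53.

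Cell cycle lists had higher median differences than the 30 genes. These lists were chosen with earlier results of these data known. All 18 measured S phase genes were positive, with a median of 0.35, where 54.7% of all genes were positive. Of the 18, 7 were at p under 0.05 by limma before adjustment, as were 5.03% of all genes upward. Rrm1 and Tyms, which supply deoxynucleotides, differed by 0.57 (SE 0.20) and 0.46 (SE 0.19). All 19 G2/M genes were positive, with a median of 0.53 and 10 at that p, among them Ccna2 at 0.76 (SE 0.26) and Tpx2 at 0.71 (SE 0.27). None of the 37 was called. The groups did not overlap upward for 7 of the S phase and 2 of the G2/M genes, as for 7.96% of all genes. By array the list medians overlapped between the groups. For S phase WT replicate 3, at 0.10, lay above knockout replicate 1, at 0.06. For G2/M it lay at 0.20, above knockout replicate 3 at 0.03. The difference between the median differences of the cell cycle lists and that of the ribosome factors was not tested. WT replicate 2 had the lowest S phase and G2/M medians, at -0.42 and -0.80. The median of the 29 genes was lowest in WT on replicate 1, at -0.13, but their growth enzymes and the further RNA polymerase I, small subunit and snoRNP lists were lowest in WT on replicate 2. Without WT replicate 2 the G2/M median was at its lowest of the alternatives tried, 0.28, and the S phase median 0.23.

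Lists of plasma cell and granulocyte markers had medians of -0.63 and 0.71, and none of their genes was called. Plasma cell genes lay below 0 for 11 of 12, and the mean log2 level of that list ran from 8.43 to 9.22 on the WT arrays and from 7.88 to 8.70 on the knockout arrays. Ighm, Jchain and Xbp1, its brightest genes, stood at 13.85, 12.50 and 10.43 in WT and differed by -0.64, -0.90 and -0.51. With the mean of its probe sets Ighm differed by -1.27, so its size depends on the probe set choice. Granulocyte progenitor genes were positive for 7 of 9, where 54.7% of all genes were positive. Their list means ran from 9.11 to 9.57 in WT and from 9.79 to 10.24 in the knockout. The brightest of that list, Calr, Elane and Ctsg, differed by 0.31, 1.21 and 1.15. Both lists hold endoplasmic reticulum genes that are not particular to the cell type, Calr in this one and Creld2 and Edem1 in the other. Among the lineage antigens Il7r, the interleukin 7 receptor gene of lymphoid progenitors, stood at 9.93, 10.27 and 9.49 in WT and 7.52, 7.60 and 7.74 in the knockout, a called difference of -2.28 (SE 0.18) with a limma adjusted p of 0.00672. Without knockout replicate 1 that adjusted p was 0.0606, so the call ended, at a difference of -2.23. In sorted bulk cells a smaller share of one cell type and less RNA per cell cannot be told apart, and the part of these markers in the difference of Myc was not tested.

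Several of the ribosome genes carry snoRNAs inside their span, which are cut from their introns and have their own probe sets. RefSeq placed 18 snoRNA genes within 7 of the 30 genes, and 7 of them had a row, in Ncl, Nop56, Nop58 and Wdr43. All 7 differences lay below 0, with a median of -0.21, while 54.7% of all genes lay above 0. That of Snord92 turned to 0.04 with array weights, and that of Snord70 to 0.36 without knockout replicate 1. These 2 were dim, with WT means of 5.14 and 5.47, below the median level of all genes, 6.29. The SE of Snord70 was 0.50. For 6 of the 7 the sign was opposite to that of the host. This count is not settled, since the host Wdr43 turned to -0.035 after centring on the brighter genes. None of the 7 was called. Snord82, inside Ncl, stood at 11.79, 11.93 and 11.69 in WT and 11.41, 11.44 and 11.50 in the knockout, so that all knockout arrays lay below all WT arrays. Its difference was -0.35 (SE 0.11, limma adjusted p = 0.458), where that of Ncl was 0.08. Snora75, in the same host, differed by -0.67 (SE 0.35), much of it from knockout replicate 1 at 7.51, while the other 2 knockout arrays stood at 8.98 and 8.71, and without that array it was -0.23. Snord11 and Snord70 in Nop58 differed by -0.21 and -0.20, Snord110 in Nop56 by -0.26, or -0.025 without knockout replicate 1, and Snord53 and Snord92 in Wdr43 by -0.14 and -0.04. The difference between a snoRNA and its host was not tested.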

How the data were processed

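The authors deposited log2 values of 41345 probe sets on 6 arrays, and the submitters' processing notes name RMA and the R package oligo with no version. RMA subtracts background, gives all arrays the same distribution and combines the probes of a set, so that dim probe sets show too small a difference. Genome build and annotation release are not stated. The platform annotation gave 1 symbol for 23521 probe sets, and the rest were left out, with no filter on low values. Limma 3.58.1 in R 4.3.3 (lmFit, eBayes, group as the only term) was fitted to 22180 genes, with Benjamini-Hochberg adjustment over all of them and a threshold of 0.05. Intervals and SEs come from this moderated fit. The calls and differences of the fit, but not its intervals or SEs, were tested on simulated data that drew each gene independently. That test does not cover genes that vary together. The genes and lists were chosen with earlier results of these data known. From each related list the text names, in either direction, at most 2 genes at an unadjusted p under 0.05, those with the largest differences, of the plasma cell and granulocyte lists the 3 brightest, and others as stated. The main fit treated the arrays as unpaired, and whether the replicate numbers pair them is not settled. Alternatives changed the moderation, array weights, low-level filter, normalization, centring, probe set choice, replicate block, threshold and single arrays.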

Additional observations from a re-analysis of the deposited data

How the results depend on the processing

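None of the 30 genes was called under any of the 13 alternatives run on each or at an adjusted p under 0.1, and Myc kept its sign in all 13. Over the whole table the count of called genes was 16. It became 25 with trend and robust moderation, 26 at an adjusted p under 0.1, 7 with the replicate number as a block and between 0 and 8 with 1 array left out: 4, 5 and 8 without WT replicates 1, 2 and 3, and 0, 7 and 4 without knockout replicates 1, 2 and 3. In the limma fit behind the 0, p was under 0.05 before adjustment for 1725 genes. The block changed no call among the 30. The deviations of same-numbered arrays from their group means correlated at 0.475, 0.027 and -0.250. The first was the highest value for any pair of a WT and a knockout array. Deviations within a group of 3 sum to 0, so these values cannot decide whether the numbers pair the arrays. With 1 array left out, between 0 and 1 of the 30 were higher at an unadjusted p under 0.05. Between 1 and 4 (4 without WT replicate 3 or knockout replicate 1) did not overlap upward and between 1 and 2 (2 without knockout replicate 2) downward. Groups with fewer arrays separate more readily, and the shares without overlap over all genes were not counted for these fits. After centring or a further quantile normalization the count without overlap upward was 0. Of the 30 differences 21 changed sign under at least 1 alternative, all of them uncalled; the cause was not tested. With 1 array left out these ran, on the log2 scale, for Ncl from -0.077 to 0.24, Npm1 from -0.087 to 0.15, Nop56 from -0.13 to 0.089, Nop58 from -0.0299 to 0.37, Nop14 from -0.20 to 0.031, Nop16 from -0.089 to 0.13, Nop2 from -0.10 to 0.15, Rrp9 from -0.0013 to 0.15, Rrp12 from -0.16 to 0.11, Rrs1 from -0.064 to 0.014, Wdr43 from -0.031 to 0.071, Polr1a from -0.10 to 0.13, Gar1 from -0.0396 to 0.34, Pes1 from -0.14 to 0.13, Ppan from -0.15 to 0.023, Mybbp1a from -0.0038 to 0.15, Srm from -0.072 to 0.10, Odc1 from -0.18 to 0.042, Tcof1 from -0.064 to 0.021, Utp20 from -0.081 to 0.085 and Nob1 from -0.12 to 0.10. The others kept their sign but not their size, with Ddx21 from 0.11 to 0.30, Polr1b from -0.20 to -0.018, Dkc1 from 0.017 to 0.25, Nolc1 from 0.013 to 0.20, Bop1 from 0.13 to 0.25, Wdr12 from 0.075 to 0.22, Cad from 0.18 to 0.36 and Nme1 from 0.12 to 0.40. The snoRNAs Snord70 and Snord92 ran from -0.69 to 0.36 and from -0.14 to 0.084, and Snord92 was 0.039 with array weights. Centring on the brighter genes turned Npm1 to -0.026, Nop16 to -0.029, Nop2 to -0.035, Wdr43 to -0.035, Polr1a to -0.013, Pes1 to -0.055, Srm to -0.033 and Utp20 to -0.049. That centring shifted all genes alike and brought the median over all genes to -0.0379. A further quantile normalization turned the same 8 to -0.029, -0.0304, -0.033, -0.0298, -0.011, -0.056, -0.027 and -0.046. Signal over background limits the dimmer genes. With 3 arrays a group a change can be missed even beyond 1.5-fold. Ctcf, at 56.7% of the WT level, and Elane, at a log2 difference of 1.21, each had a limma adjusted p of 0.104.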
